A study of Mus musculus with 8 samples.

Results

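Small nucleolar RNA host genes were described in mouse atria with and without deletion of Chd4. They were 10 genes listed by symbol (Snhg1, Snhg3, Snhg5, Snhg6, Snhg8, Snhg11, Snhg12, Snhg14, Snhg15 and Gas5), each found once among 54532 genes of the deposited table. The list was drawn up with their KO and control values known, so those values are given as a description and carry no p-value. Of the 10 genes, 9 passed the filter on low counts that left 18033 genes for testing, and Snhg3 did not.

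Host genes of this kind carry small nucleolar RNAs (snoRNAs) inside their introns, and the snoRNAs are released when the intron is spliced out and trimmed. Box C/D snoRNAs guide 2′-O-methylation and box H/ACA snoRNAs guide pseudouridylation, mostly of ribosomal RNA. Many spliced host transcripts begin with a terminal oligopyrimidine (TOP) tract, a run of C and T letters that places an RNA under mTORC1-dependent translational control, and are degraded by nonsense-mediated decay when ribosomes read them. A poly(A)-selected library therefore measures the spliced host transcript rather than the snoRNA.

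All 8 libraries came from right and left atria of Chd4flox/flox mice injected on postnatal day 2 with an AAV9 vector. The KO group (4 libraries) received AAV9:Nppa-Cre and the control group (4 libraries) AAV9:Nppa-EGFP. Chd4 encodes a chromatin remodeller of the NuRD complex, and the comparison asked which transcripts differed once it was deleted after birth. The Nppa promoter is active mainly in atrial muscle cells, while the labels give the cell type of the samples as mixed, so other cells of the tissue were sequenced with the targeted ones. Every mouse carried the floxed alleles, KO mice alone received Cre and control mice alone EGFP, so effects of Cre, of EGFP and of the deletion cannot be told apart. Neither the age of the mice at collection nor how many mice went into a library is given in the sources used here. The labels do not call the replicates separate mice, so p-values reflect only how these samples spread, and that spread may be technical.

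Total counts were 34002292 to 38228982 in KO libraries and 39804625 to 40588007 in control libraries, and mitochondrial transcripts took 9.53% to 11.2% of them. Chd4 itself was at 169, 185, 187 and 200 CPM (counts scaled by library size) in KO 1 to 4, against 278, 297, 284 and 308 CPM in controls 1 to 4 (edgeR adjusted p = 1.86e-05). The Y-linked gene Ddx3y was low in KO 2 and in controls 1 and 2 (0.706 to 0.858 CPM) and high in the other libraries (105 to 124 CPM). Controls 1 and 2 and controls 3 and 4 also had different library name prefixes, so the 2 features cannot be told apart. KO 1 had another prefix and KO 2 to 4 yet another, so no prefix was shared by KO and control libraries, and whatever it stands for cannot be told apart from the deletion. Of 9 cardiomyocyte markers, 8 fell and 1 (Pln) rose, with a summed level of 50332 to 60937 CPM in KO against 78982 to 84777 CPM in control. Its atrial members Myl7 and Nppa averaged 1748 and 10574 CPM in KO, against 4043 and 17155 CPM in control. Markers of fibroblasts (3 of 6 rose, 0 fell; summed 6802 to 9021 CPM in KO against 5897 to 6580 CPM in control), macrophages (3 of 6 rose, 0 fell; 327 to 474 CPM in KO against 285 to 357 CPM in control) and epicardium (3 of 5 rose, 0 fell; 551 to 686 CPM in KO against 419 to 547 CPM in control) were called in the other direction. Of 6 endothelial markers, 4 rose and 1 fell (1667 to 1981 CPM in KO against 1468 to 1590 CPM in control). Of 6 smooth muscle and pericyte markers, 3 rose and 2 fell (324 to 453 CPM in KO against 429 to 687 CPM in control), of 5 lymphocyte markers 1 rose and 0 fell (27.0 to 56.7 CPM in KO against 6.22 to 27.3 CPM in control), and of 4 erythroid markers 0 rose and 1 fell (729 to 1805 CPM in KO against 1011 to 1905 CPM in control). No marker of these 8 lists was at 0 in all libraries. Of 3 tested ventricular muscle, 5 Schwann cell and 3 adipocyte markers, 0 were called by edgeR with all libraries. Their summed levels were 238 to 290, 22.4 to 29.5 and 0.163 to 49.4 CPM in KO. In control these were 216 to 599, 21.8 to 28.4 and 0.303 to 2.32 CPM. At an unadjusted p under 0.05, 2 Schwann markers were higher. Without control 3, 1 ventricular marker was called lower. Of the Schwann markers, 1 was called higher without KO 1 and 1 lower without control 2. Over all tested genes, 14.8% were called higher and 13.1% lower in KO. The marker counts moved with single libraries. Called macrophage markers numbered 1 without KO 2, KO 4 or control 1 and 5 without KO 3, and called fibroblast markers 5 without KO 1. Without KO 1, 1 macrophage marker was called higher and 1 lower. Called endothelial markers numbered 2 without KO 3 or control 4 and 3 without KO 2, KO 4 or control 1. Called smooth muscle and pericyte markers numbered 2 without KO 1 and 3 without KO 3, KO 4, control 1, control 2 or control 3. Called lymphocyte markers numbered 0 without KO 2 or control 4 and 3 without control 3, and the erythroid call was lost without KO 1, KO 3, control 1, control 3 or control 4. Of the markers in lists where 0 fell, 0 were lower at an unadjusted p under 0.05 in edgeR, 0 were called lower by DESeq2, and 1, a macrophage marker, was called lower by limma-voom; 0 erythroid markers were higher by any of these. In bulk tissue fewer cells of a type and less RNA per cell cannot be told apart, and the part of these shifts in the host gene values was not tested.

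The letters around the transcription starts are shown because the TOP tract is the feature best known to join these genes. Each stretch below is on GRCm38.p6 from RefSeq, read in the direction of the gene, with capitals for a C followed by at least 4 further C or T letters that begins within 10 bases of the RefSeq start.
Snhg8 (chr3:123508297-123508376, minus strand): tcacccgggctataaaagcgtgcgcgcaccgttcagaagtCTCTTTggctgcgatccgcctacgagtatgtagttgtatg
Gas5 (chr1:161035126-161035205, plus strand): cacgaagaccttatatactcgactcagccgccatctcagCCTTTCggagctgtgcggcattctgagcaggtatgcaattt
Snhg12 (chr4:132308638-132308717, plus strand): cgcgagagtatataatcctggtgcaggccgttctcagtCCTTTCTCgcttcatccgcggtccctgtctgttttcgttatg
Snhg3 (chr4:132353647-132353726, minus strand): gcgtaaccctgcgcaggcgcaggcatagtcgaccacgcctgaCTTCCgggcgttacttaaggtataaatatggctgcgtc
Snhg5 (chr9:88522858-88522937, minus strand): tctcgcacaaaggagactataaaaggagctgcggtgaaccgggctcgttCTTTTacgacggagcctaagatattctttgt
Snhg11 (chr2:158375673-158375752, plus strand): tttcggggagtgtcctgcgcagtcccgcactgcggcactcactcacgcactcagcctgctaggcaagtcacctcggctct
Snhg14 (chr7:60450138-60450217, minus strand): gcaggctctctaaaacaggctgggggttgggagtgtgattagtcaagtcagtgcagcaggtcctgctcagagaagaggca
Of the 10 host genes, 9 had a RefSeq start, Snhg6 was without an entry, and Gas5 had 2 starts, the second of which is shown. Such a tract was present in 5 host genes, and in 5 of the 10 host promoters. It began at the start base itself in Snhg8 (CTCTTT), 1 base before it in Gas5 (CCTTTC), 2 bases before it in Snhg12 (CCTTTCTC), 2 bases after it in Snhg3 (CTTCC) and 9 bases after it in Snhg5 (CTTTT). The windows of Snhg1, Snhg11, Snhg14, Snhg15 and the first Gas5 start held none. For comparison, 30.7% of 32851 RefSeq promoters (27025 genes) and 55.4% of 74 promoters of ribosomal protein genes held such a tract. With at least 6 further C or T letters the tract remained in 1 host gene, Snhg12, against 12.2% of all promoters. The RefSeq start lay 0 to 179 bases from the GENCODE start for all of the 9 genes except Snhg14, with the second Gas5 start 744 bases downstream of it. For Snhg14 it lay 474418 bases upstream of the start of the gene model whose counts are given here, so the Snhg14 stretch is not the start of that model.

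The 300-base promoters from which these stretches come were also searched on both strands for 8 motifs. TATAAA, the letters of the TATA box, occurred in Snhg1, Snhg3, Snhg5 and Snhg8, against 13.6% of all promoters. The match began 29 bases before the start in Snhg1 (on the other strand), 23 in Snhg5 and 30 in Snhg8. In Snhg3 it began 22 bases after the start. GGGCGG, the GC box, occurred in Snhg1, Snhg5, Snhg8, Snhg15 and both Gas5 promoters, against 35.7%. The cyclic AMP response element TGACGTCA occurred in Snhg15 and the second Gas5 promoter (1.79% of all), the E-box CACGTG in Snhg15 (7.15%) and the ETS motif CCGGAAG in Snhg3 (8.86%), where it overlapped the tract. The NRF1 motif (0.971%), the CGCG element (0.466%) and the T-box motif AGGTGTGA (1.28%) were in none of the host promoters. The promoters of Snhg11, Snhg12 and Snhg14 held none of the 8 motifs.

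The host genes differed widely in how far KO and control atria stood apart. Snhg11 was 44.5-fold higher in KO and Snhg14 1.62-fold higher, while the log2 fold changes of the other 7 tested host genes lay between -0.10 and 0.26. In 4 of the 10 genes (Snhg11, Snhg14, Snhg5 and Gas5) every KO library was above every control library, 0 had every KO library below every control, and in 6 the groups overlapped. Over all tested genes, 15.3% had every KO library above every control, and 29.2% did not overlap in either direction. By the edgeR rule (adjusted p under 0.05) 3 of the 9 tested host genes passed (Snhg11, Snhg14 and Gas5), beside 27.9% of all tested genes (14.8% higher and 13.1% lower in KO). Gas5 did not pass under RLE or upper-quartile scaling, by DESeq2, with the replicate block, against controls 1 and 2 alone, or without any 1 library other than control 2, which left 2 of the 9. The members were chosen on this contrast, so these counts are only a description. Their median log2 fold change was 0.22, beside 0.01 over all tested genes, and 6 of the 9 were positive, beside 51.3% of all tested genes.

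**Figure D1:**
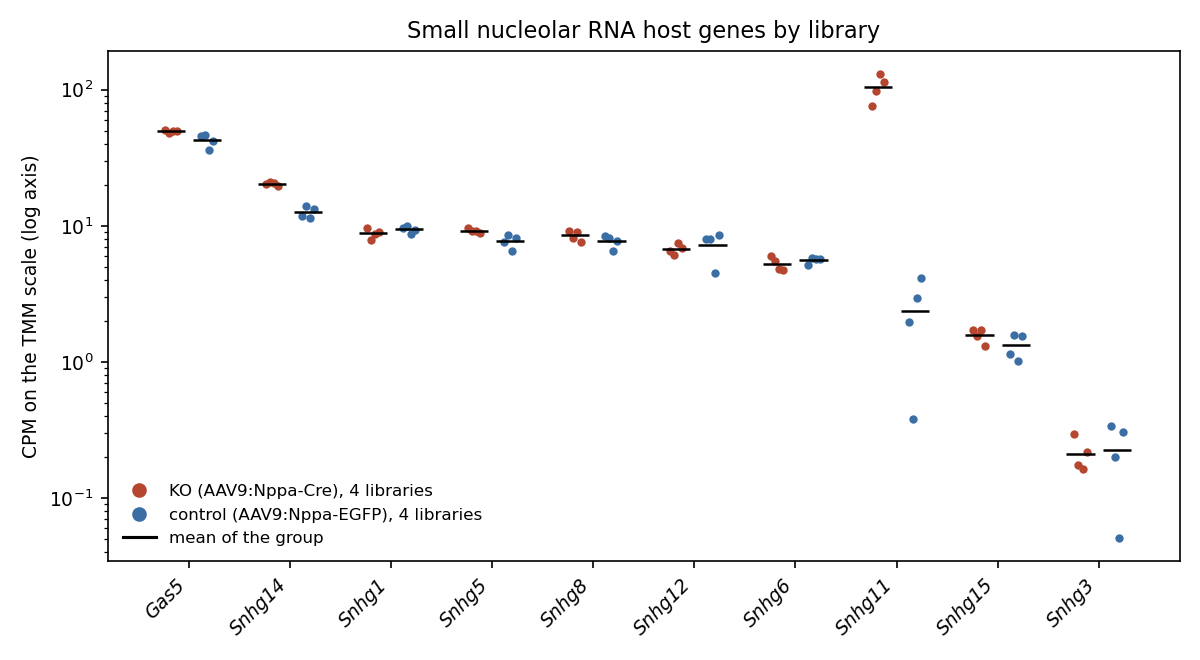
Level of the 10 host genes in each library, in CPM on a log axis; points are libraries, KO left of control for each gene, and bars are means of 4 libraries. The KO points of Snhg11 lie between 76.0 and 131 CPM with all control points at 4.13 CPM or below, the KO points of Snhg14 stand clear of the control points, and most other pairs of clouds meet.

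Among the hosts of box C/D snoRNAs, Gas5 (growth arrest-specific 5, chr1:161034422-161038539, plus strand, GRCm38) holds 10 annotated snoRNA genes, among them Snord47, Snord78 and Snord80. Its RNA accumulates in growth-arrested cells and can bind the glucocorticoid receptor. Gas5 was at 50.9, 47.9, 49.7 and 50.1 CPM in KO 1 to 4, against 45.6, 46.4, 36.0 and 42.3 CPM in controls 1 to 4. The 4 KO libraries lay close together and above all controls, and control 3 was the lowest. The mean was 49.6 ± 1.29 CPM in KO against 42.6 ± 4.71 CPM in control (SD, n = 4 each), 1.17-fold, with a log2 fold change of 0.22 (SE 0.08). It was 0.15 without control 3, 0.09 against controls 1 and 2 alone, and 0.32 against controls 3 and 4 alone.

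Snhg1 (chr19:8723475-8726443, plus strand) holds Snord22 and 7 further snoRNA genes that the annotation gives under predicted gene names. It was at 9.67, 7.84, 8.69 and 9.05 CPM in KO 1 to 4, against 9.62, 10.03, 8.68 and 9.32 CPM in controls 1 to 4. The groups overlapped, and the log2 fold change was -0.10 (SE 0.10). Snhg5 (chr9:88521050-88522929, minus strand), host of Snord50a and Snord50b, was at 9.70, 9.13, 9.21 and 8.86 CPM in KO 1 to 4, against 7.65, 8.52, 6.56 and 8.17 CPM in controls 1 to 4. All KO libraries were above all controls, though KO 4 exceeded control 2 by little (log2 fold change 0.26, SE 0.11, and 0.18 without control 3). Snhg6 (chr1:9941959-9944118, minus strand), host of Snord87, was at 5.99, 5.48, 4.79 and 4.74 CPM in KO 1 to 4, against 5.12, 5.82, 5.69 and 5.75 CPM in controls 1 to 4. KO 1 was the highest of all 8 libraries and KO 4 the lowest, so the groups overlapped (log2 fold change -0.09, SE 0.12).

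Snhg14 (chr7:59307924-59975759, minus strand) is the very long host of the Prader-Willi and Angelman syndrome region. It is transcribed from the paternal chromosome, holds tandem arrays of box C/D snoRNAs and, in neurons, runs antisense through Ube3a and silences the paternal Ube3a allele. Its annotated span of 667836 bases held 208 snoRNA genes, against 10 or fewer in each of the other hosts. Snhg14 was at 20.4, 21.1, 20.6 and 19.5 CPM in KO 1 to 4, against 11.8, 13.9, 11.5 and 13.2 CPM in controls 1 to 4. The 4 KO libraries lay close together and the lowest of them was well above the highest control. The mean was 20.4 ± 0.653 CPM in KO against 12.6 ± 1.13 CPM in control (SD, n = 4 each), with a log2 fold change of 0.69 (SE 0.08) that lay between 0.64 and 0.77 under all 19 alternatives tried. Of its exon bases, 6.91% overlap exons of Ube3a on the other strand, and the sources used here do not say whether counting used strand, so reads from that stretch are uncertain.

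Among the hosts of box H/ACA snoRNAs, Snhg8 (chr3:123507552-123508404, minus strand), host of Snora24, was at 9.23, 8.16, 9.02 and 7.67 CPM in KO 1 to 4, against 8.48, 8.14, 6.56 and 7.69 CPM in controls 1 to 4. The groups overlapped, with the lowest value in control 3 (log2 fold change 0.14, SE 0.11). Snhg12 (chr4:132308623-132311024, plus strand) holds Snora16a, Snora44 and Snora61 beside the box C/D Snord99. It was at 6.55, 6.15, 7.52 and 6.85 CPM in KO 1 to 4, against 8.01, 7.97, 4.49 and 8.53 CPM in controls 1 to 4. Controls 1, 2 and 4 lay above all KO libraries and control 3 below all of them, and the log2 fold change of -0.10 (SE 0.18) was -0.27 without control 3.

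Snhg15 (chr11:6525591-6528760, minus strand), host of Snora9, was at 1.71, 1.54, 1.72 and 1.30 CPM in KO 1 to 4, against 1.14, 1.59, 1.02 and 1.55 CPM in controls 1 to 4. The groups overlapped (log2 fold change 0.24, SE 0.22). Snhg3 (chr4:132348014-132353686, minus strand) hosts Snora73a and Snora73b, also known as U17, which act in the processing of 18S ribosomal RNA precursors. It had 10, 7, 6 and 8 counts in KO 1 to 4, against 13, 8, 2 and 12 counts in controls 1 to 4, too few for the test. Of its exon bases, 13.7% are shared with Rcc1 on the same strand and 71.5% with a predicted gene on the other strand, so reads could have been split between them or left uncounted.

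Snhg11 (chr2:158375638-158386145, plus strand), typed as protein-coding in GENCODE M21 and as a long noncoding RNA in RefSeq, is abundant in neurons of the mouse brain. It had 2575, 3960, 4796 and 4226 counts in KO 1 to 4, against 75, 15, 116 and 162 counts in controls 1 to 4. In CPM these were 76.0, 98.3, 131 and 114 in KO 1 to 4, against 1.95, 0.378, 2.96 and 4.13 in controls 1 to 4. KO 1 was the lowest KO library and still far above every control, and control 2 was well below the other controls. The coefficient of variation was 22.3% in KO against 67.5% in control. The log2 fold change of 5.48 (SE 0.54) ranked 24 of 18033 tested genes from the highest, while Snhg14 ranked 1540. It was 6.48 against controls 1 and 2 alone, 4.86 against controls 3 and 4 alone, and 5.12 without control 2.

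**Figure D2:**
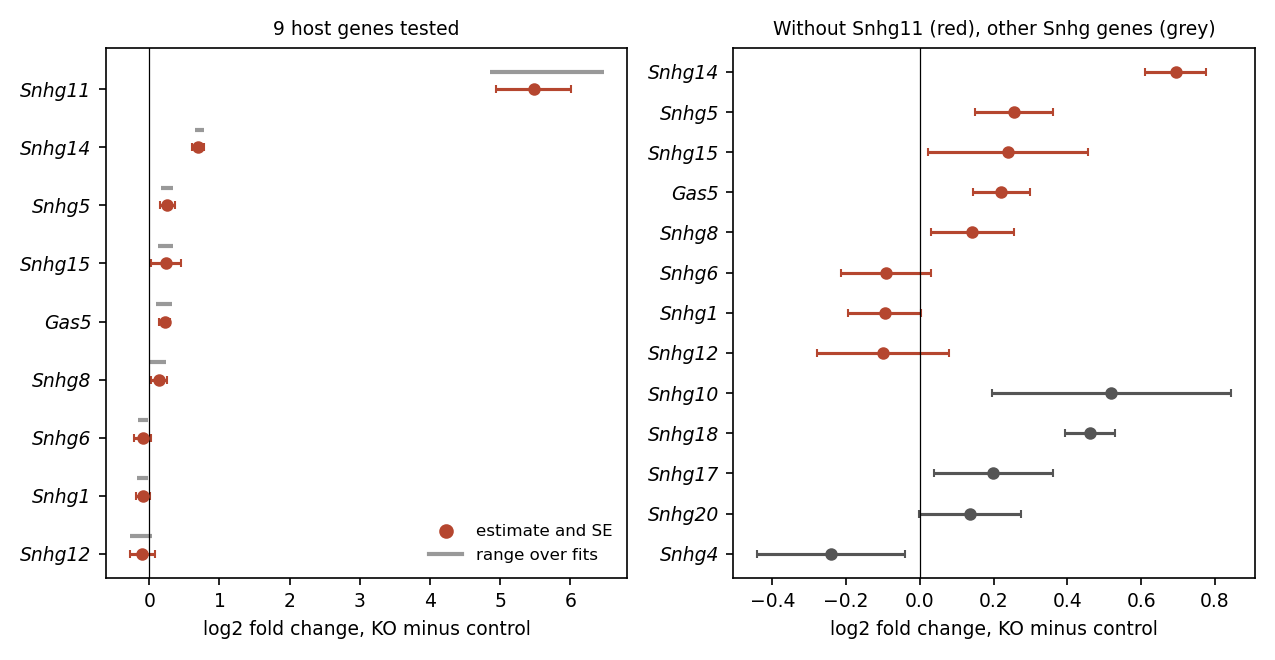
Log2 fold change of KO minus control. Left, the 9 tested host genes with SE (error bars) and the range over all fits (grey lines); right, the same genes without Snhg11 (red) above the 5 other tested Snhg genes (grey), with SE. Snhg11 stands at 5.48 and Snhg14 at 0.69, and the remaining host genes lie between -0.10 and 0.26.

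Summed over the 10 host genes, the level was 215 ± 22.2 CPM in KO against 96.8 ± 8.93 CPM in control (SD, n = 4 each). Snhg11 made up 48.3 ± 6.13% of the sum in KO and 2.49 ± 1.68% in control, and Gas5 23.3 ± 2.58% in KO against 44.0 ± 1.76% in control. Without Snhg11 the sum of the other 9 was 114, 107, 111 and 108 CPM in KO 1 to 4, against 97.8, 103, 80.6 and 96.8 CPM in controls 1 to 4, 16.9% higher in KO with no overlap. Without Snhg14 as well the sum of 8 was 94.1, 86.3, 90.8 and 88.8 CPM in KO 1 to 4, against 85.9, 88.7, 69.1 and 83.6 CPM in controls 1 to 4. KO 2 was then below control 2, so the groups overlapped (90.0 ± 3.27 CPM in KO against 81.8 ± 8.75 CPM in control). Control 3 was the lowest control for 8 of the 10 host genes, beside 25.3% of all tested genes, 2 of 5 other Snhg genes and 25.8% of 252 other snoRNA host genes. This pattern was noticed after the values were seen.

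Levels can be compared between genes only per length, so CPM were divided by exon length in kilobases (RPKM), over the union of annotated exons. In control atria the order was Gas5 (11.3 ± 1.25 RPKM), Snhg8 (9.05 ± 0.981), Snhg6 (4.89 ± 0.280), Snhg5 (4.47 ± 0.495), Snhg1 (3.17 ± 0.192), Snhg12 (3.02 ± 0.773), Snhg15 (0.976 ± 0.211), Snhg14 (0.483 ± 0.0433), Snhg11 (0.276 ± 0.186) and Snhg3 (0.227 ± 0.131; SD, n = 4 each). Between these neighbours the libraries overlapped for Gas5 and Snhg8, for Snhg6 and Snhg5, for Snhg1 and Snhg12, for Snhg14 and Snhg11, and for Snhg11 and Snhg3. In KO atria Snhg11, at 12.3 ± 2.74 RPKM, stood beside Gas5 at 13.2 ± 0.342 RPKM and Snhg8 at 9.99 ± 0.858 RPKM. Over the longest annotated transcript in place of all exons, the control order was Gas5 (16.7 RPKM), Snhg8 (9.95), Snhg6 (6.86), Snhg5 (6.33), Snhg12 (4.71), Snhg1 (3.45), Snhg15 (1.97), Snhg14 (1.84), Snhg11 (0.401) and Snhg3 (0.386). By that length Snhg12 stood above Snhg1, with overlap. Snhg5 and Snhg12 overlapped, as did Snhg15 (1.51 to 2.35 RPKM) and Snhg14 (1.68 to 2.02 RPKM), whose exons are spread over 65 blocks, whereas Gas5 and Snhg8, and Snhg14 and Snhg11, did not.

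**Figure D3:**
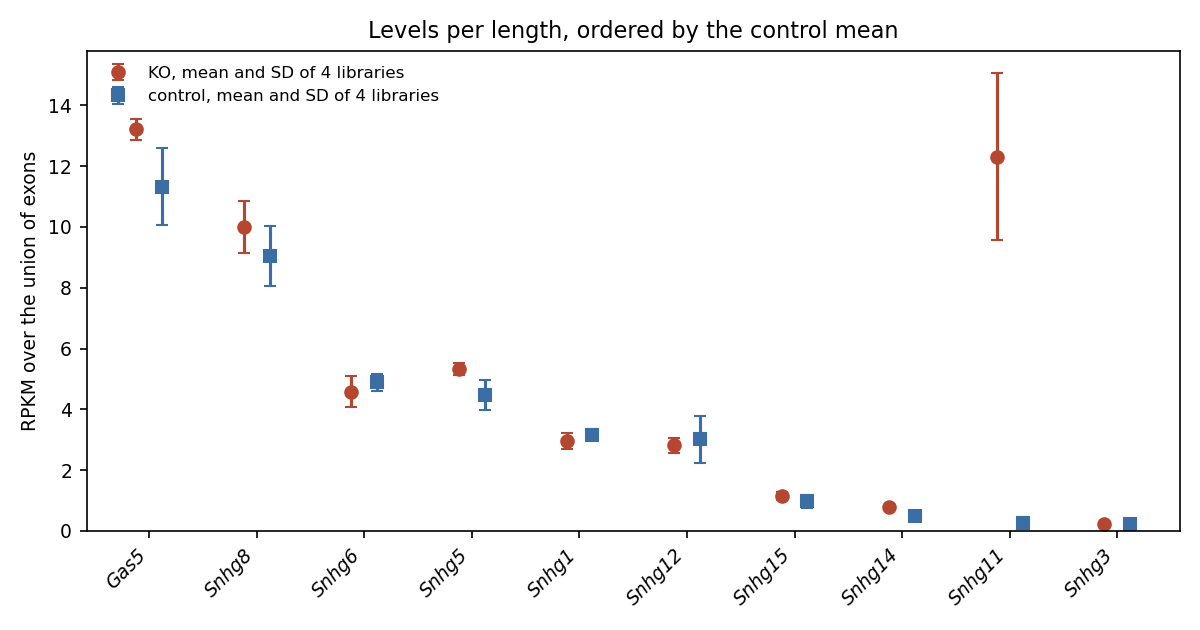
Level per length of the 10 host genes in RPKM over the union of exons, mean and SD of 4 libraries, KO left of control, ordered by the control mean. Snhg11 is next to last in control (0.276 RPKM) and second to Gas5 in KO (12.3 against 13.2 RPKM).

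The hosted snoRNAs had few counts in these libraries; mature snoRNAs carry no poly(A) tail, and the libraries were selected for one. Of 240 annotated snoRNA genes inside the 10 hosts, 3 had any count, and 1507 annotated snoRNA genes of the whole genome had 7819 counts in all, over 321 genes. Snord87 in Snhg6 had 5 counts in KO and 4 in control, and Gm24966 in Snhg14 had 1 in KO and 1 in control. Wholly inside the annotated exons of their hosts lay 29 snoRNA genes, all of them at 0 counts, where the counting may have given reads to the host or to neither gene.

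The third was Gm25129 (chr2:158379534-158379666, plus strand, GRCm38), a snoRNA gene of 133 bases in an intron of Snhg11. Its sequence, given by the reference annotation, is shown because it was the hosted snoRNA whose counts differed between the groups.
Gm25129: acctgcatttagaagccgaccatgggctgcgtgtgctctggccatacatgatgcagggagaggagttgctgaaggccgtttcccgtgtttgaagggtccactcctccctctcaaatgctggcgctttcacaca
It had 9, 10, 10 and 12 counts in KO 1 to 4, against 0 in each control. Every KO library was above every control, and with each control library set at 3 counts, the limit that 0 allows, it was at least 3.62-fold higher in KO. These counts were 0.264% of those of Snhg11 in KO (0.209% to 0.350% by library). At the same ratio the 368 Snhg11 counts of the controls would give 0.97 counts, so a lower ratio in control was not detectable at this depth. Whether the reads came from the snoRNA or from unspliced Snhg11 RNA was not tested.

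Genes next to the hosts were called in both directions. The nearest tested protein-coding genes on either side of each host, overlapping genes included, were 24 genes, of which 7 were higher, 2 lower and 15 not called, beside 27.9% of all genes called. Snhg1 and Gas5 have divergent partners that start on the other strand within 1000 bases. Slc3a2, the heavy chain of amino acid transporters, starts 106 bases from Snhg1 and had a log2 fold change of 0.03 (edgeR adjusted p = 0.745). Zbtb37, a zinc finger gene, starts 427 bases from Gas5 and was at 0.00 (0.99). Rcc1, the exchange factor of the GTPase Ran, starts 81 bases from Snhg3 and was at -0.06 (0.754).

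Around Snhg11, Lbp, which encodes the lipopolysaccharide-binding protein, rose, while the genes that flank Snhg11 most closely did not pass the test. Lbp was at 28.2, 34.02, 32.8 and 33.8 CPM in KO 1 to 4, against 13.9, 18.0, 18.6 and 14.3 CPM in controls 1 to 4, with no overlap (log2 fold change 0.99, SE 0.11, edgeR adjusted p = 4.15e-05). Its start lies 69145 bases upstream of that of Snhg11. Ralgapb, a subunit of the Ral GTPase-activating complex that starts 34210 bases downstream, was at 0.00 (adjusted p = 0.994). Snhg17, another snoRNA host that lies between Lbp and Snhg11, was at 0.20 (adjusted p = 0.393). Within 250 kb of the Snhg11 start, leaving out Gm25129, which lies inside Snhg11 and passed the filter through its KO counts alone, 1 of 6 other tested genes was higher (Lbp), 0 lower and 5 not called, beside 27.9% of all genes called. By edgeR at an unadjusted p under 0.05, by DESeq2 and by limma-voom, 0 genes of the window were lower as well.

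Around Snhg14, Snrpn and Gm38393 on the same strand rose, and Ube3a on the other strand did not pass the test. Snrpn, a spliceosomal protein gene of the same paternally expressed unit, was at 73.9, 67.2, 74.9 and 64.0 CPM in KO 1 to 4, against 44.6, 47.6, 60.6 and 48.4 CPM in controls 1 to 4. Every KO library was above every control, with control 3 the nearest (log2 fold change 0.48, SE 0.09, edgeR adjusted p = 0.00275). Snrpn starts 164460 bases upstream of the Snhg14 gene model used here, inside the longer RefSeq model. Gm38393, a predicted gene that shares 27 exon bases with Snhg14, was at 9.75 ± 0.561 CPM in KO against 5.81 ± 0.382 CPM in control (log2 fold change 0.75, adjusted p = 0.000202). Gm38393 starts inside the span of Snrpn on the same strand, and whether their rises are separate was not tested. Ube3a, a ubiquitin ligase gene, was at 78.1 ± 5.07 CPM in KO against 78.9 ± 2.80 CPM in control (log2 fold change -0.02, SE 0.06, adjusted p = 0.877). Atp10a, a phospholipid flippase gene, was higher (log2 fold change 0.50, adjusted p = 0.0197), but did not pass once KO 4 (0.0521), control 1 (0.059) or control 4 (0.0572) was left out, nor against controls 3 and 4 by themselves (0.131). Of the 6 tested genes of the Snrpn imprinted domain, 2 were higher (Snrpn and Atp10a), 0 lower (also 0 at an unadjusted p under 0.05, by DESeq2 and by limma-voom) and 4 not called. The 6 had a median log2 fold change of 0.48, with 33.3% called beside 27.9% of all tested genes. Ndn, a paternally expressed gene of the domain, was at 0.11 (adjusted p = 0.478).

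**Figure D4:**
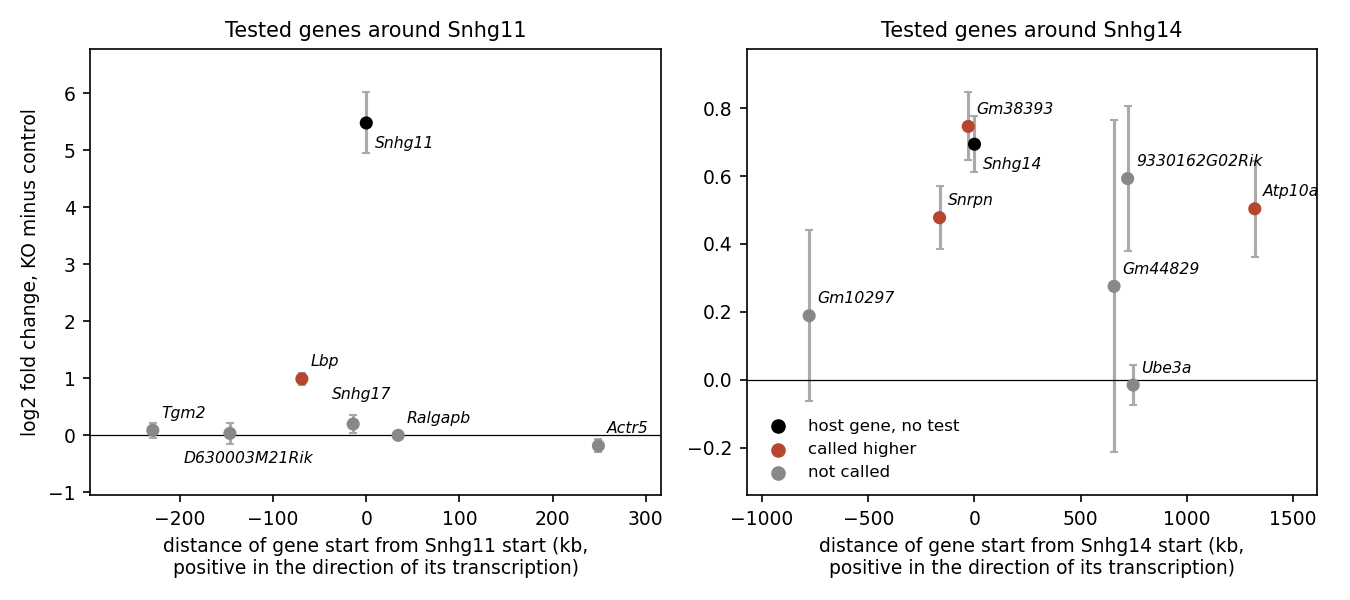
Log2 fold change of KO minus control (SE as error bars) of tested genes by the distance of their start from that of Snhg11 (left, kb) and Snhg14 (right, kb), positive in the direction of transcription of the host; Gm25129 is left out because its controls were at 0. The host genes are black, called genes red and other genes grey; Lbp is the called gene beside Snhg11, and Gm38393, Snrpn and Atp10a are those around Snhg14.

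Snhg6 lies among genes that moved in both directions while its own groups overlapped. Tcf24, a helix-loop-helix factor gene, was at 3.93 ± 0.567 CPM in KO against 1.37 ± 0.106 CPM in control (log2 fold change 1.51, edgeR adjusted p = 5.13e-05). Mcmdc2, a gene of meiotic recombination that overlaps Snhg6 on the other strand, was at 0.327 ± 0.145 CPM in KO against 1.22 ± 0.595 CPM in control (-1.89, adjusted p = 0.00499). Mcmdc2 exons overlap 11.1% of the Snhg6 exon bases, so reads there are uncertain. Within 250 kb of the Snhg6 start, 4 of 7 other tested genes were higher, 2 lower and 1 not called, beside 14.8% of all tested genes higher and 13.1% lower. These counts moved with single libraries. With 1 library left out, 4 genes stayed higher only without KO 1 and without control 1, and 3 otherwise. The lower genes were Mcmdc2 and Sgk3 (log2 fold change -0.33, adjusted p = 0.0353). In such fits Sgk3 kept its call only without control 1 and without control 4 (adjusted p otherwise 0.0521 to 0.101). Among the flanking genes of the remaining hosts, Ccm2 beside Snhg15 was at 0.35 (adjusted p = 0.00389, and 0.0746 against controls 3 and 4 alone). Ndst3 beside Snhg8 was at 1.21 (adjusted p = 0.0078, and 0.071 against controls 3 and 4 alone).

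Of the 5 other tested Snhg genes, 1 rose, 0 fell (also 0 at an unadjusted p under 0.05, by DESeq2 and by limma-voom) and 4 were not called. The 5 had a median log2 fold change of 0.20, with 20.0% called beside 27.9% of all tested genes. Snhg18 was at 25.8, 25.3, 24.8 and 24.9 CPM in KO 1 to 4, against 18.0, 16.9, 19.3 and 18.9 CPM in controls 1 to 4. The groups stood well apart (log2 fold change 0.46, SE 0.07, edgeR adjusted p = 0.000377). Snhg17 was at 0.20 (0.393), Snhg20 at 0.14 (0.505), Snhg10 at 0.52 (0.261) and Snhg4 at -0.24 (0.408), and Snhg9 did not pass the filter on low counts.

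With the 10 host genes left out, annotated protein-coding or long noncoding genes that hold a snoRNA gene on their strand numbered 312. Snhg9 and Snhg18 are among them, and 252 were tested. Of the 252, 26 rose, 39 fell and 187 were not called, which is 25.8% called beside 27.9% of all tested genes. The median log2 fold change was -0.05. The 65 called genes became 43 without KO 3, 36 against controls 1 and 2 alone and 43 against controls 3 and 4 alone. With library size alone, 43 rose and 19 fell, so which direction held more calls depended on the scaling. Rian, the long noncoding host of the snoRNA array in the imprinted Dlk1-Dio3 region, was at 132, 124, 161 and 159 CPM in KO 1 to 4, against 47.4, 39.2, 47.7 and 41.1 CPM in controls 1 to 4. It was 3.29-fold higher in KO with no overlap (log2 fold change 1.72, SE 0.10, adjusted p = 6.3e-07). Maged2 and Pir had log2 fold changes of 0.77 and 0.89 (adjusted p = 9.05e-05 and 4.42e-05), and Fbxo45 was at -0.48 (7.19e-05). Among protein-coding hosts 23 of 230 rose and 36 fell, and among noncoding hosts 3 of 22 rose (Snhg18 included) and 3 fell.

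Core proteins of snoRNA particles were called in both directions, though most of their log2 fold changes were negative. Of the 8 core proteins of box C/D and H/ACA particles, 1 was higher, 2 lower and 5 not called. This is 37.5% called beside 27.9% of all tested genes, and 1 was called, lower, without KO 2, control 3 or control 4. Dkc1, the pseudouridine synthase of H/ACA particles, was at 24.3 ± 2.39 CPM in KO against 30.9 ± 1.55 CPM in control (log2 fold change -0.34, SE 0.08, edgeR adjusted p = 0.00653). Nop56, of C/D particles, was at 0.25 (adjusted p = 0.0454), which did not pass without KO 1, KO 2, KO 3, control 2, control 3 or control 4 (0.072 to 0.117). Nop56 also did not pass under RLE (0.0577) or upper-quartile scaling (0.0516), by limma-voom (0.0732) or against controls 1 and 2 alone (0.351). Snu13, the protein that starts C/D assembly, was at -0.22 (adjusted p = 0.0338), which did not pass without KO 2, KO 4, control 1, control 3 or control 4 (0.0504 to 0.1). Of 11 assembly factors, 0 were higher, 1 lower and 10 not called by edgeR, 9.09% called beside the same 27.9%. Their median log2 fold change was -0.17, and 0 of the 11 were positive. The call was Pih1d1, of the R2TP complex, at -0.29 (adjusted p = 0.00957, and 0.0562 with library size alone). Lower assembly factors numbered 2 without KO 1 and by limma-voom and 3 by DESeq2.

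With TMM scaling, the calls among nonsense-mediated decay and exon junction factors were on the lower side. Of 17 genes, 0 were higher, 1 lower and 16 not called by edgeR, 5.88% called beside 27.9% of all genes, with a median log2 fold change of -0.05. The call was Rbm8a, a core protein of the exon junction complex (-0.20, adjusted p = 0.0213), and it was lost without KO 3 (0.0721), KO 4 (0.062) or control 1 (0.0566). The count of lower genes was 3 without KO 1 or control 3, 2 without control 2, 2 by DESeq2 and 5 by limma-voom. With library size alone, 1 gene was higher and 0 lower, so the side of the calls depended on the scaling. Upf1, the central helicase of the pathway, was at 68.5 ± 4.95 CPM in KO against 75.8 ± 3.94 CPM in control (-0.15, adjusted p = 0.118). In this list and that of the assembly factors, 0 genes were higher at an unadjusted p under 0.05, by DESeq2 or by limma-voom.

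Among other transcripts known for TOP tracts, translation factors were called in both directions and ribosomal protein genes on the lower side alone. Of 15 translation factors of this class, 2 rose, 1 fell and 12 were not called, which is 20.0% called beside 27.9% of all genes. The median log2 fold change was 0.01. The 3 calls became 5 without KO 1 and by DESeq2 and 6 with library size alone and by limma-voom. Eef1a1, which brings aminoacyl-tRNA to the ribosome, was at 0.27 (edgeR adjusted p = 0.00498), and Eef1d, a subunit of its exchange factor, was at -0.34 (0.000781). The other call, Eif3e at 0.19 (0.0412), was lost without any 1 library other than control 2 (0.0556 to 0.129). Of 81 tested cytosolic ribosomal protein genes, 0 were higher, 18 lower and 63 not called by edgeR, with a median of -0.13 (-0.05 with library size alone). That is 22.2% of the 81 called, beside 27.9% of all tested genes (13.1% lower). With TMM scaling, 4 of the 81 had a positive log2 fold change. At an unadjusted p under 0.05, 1 was higher, and 0 were higher by DESeq2 and limma-voom. Rpl36 was the called gene with the smallest p (-0.36, adjusted p = 0.00498). The count of lower genes was 2 with library size alone, 27 by DESeq2 and 30 by limma-voom, and it lay between 6 (without KO 3 or KO 4) and 28 (without KO 1) when 1 library was left out. It was 7 without control 1, 11 without control 3 and 10 without control 4. KO 4 was the lowest KO library for 73 of the 81 genes.

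Of 17 genes of mTORC1 and TOP control, 1 rose, 4 fell and 12 were not called, which is 29.4% called beside 27.9% of all tested genes. The called genes numbered 3 without KO 2, KO 3, control 1 or control 4, and 2 with library size alone. Sesn2, a stress-induced inhibitor of mTORC1, was at 12.4 ± 1.72 CPM in KO against 6.18 ± 0.710 CPM in control (log2 fold change 1.00, SE 0.13, edgeR adjusted p = 0.000142). Deptor, an inhibitory subunit of mTOR complexes, was at -0.62 (0.00262), and Tsc1, of the complex that restrains Rheb, was at -0.21 (0.00867, and 0.104 with library size alone). Of 18 genes of ribosomal RNA synthesis and early ribosome assembly, 4 rose, 2 fell and 12 were not called, which is 33.3% called beside the same 27.9%. The called genes numbered 3 without control 4 (2 higher and 1 lower) and 11 by limma-voom (5 higher and 6 lower). Polr1a, the largest subunit of RNA polymerase I, was at 98.4 ± 3.70 CPM in KO against 60.4 ± 1.91 CPM in control (log2 fold change 0.70, SE 0.05, adjusted p = 2.5e-06). Polr1e, another subunit, was at 0.58 (0.00894), and Taf1a, of the promoter selectivity factor, at -0.39 (0.00164).

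Of 13 glucocorticoid receptor and target genes, listed for their tie to Gas5, 2 rose, 1 fell and 10 were not called. That is 23.1% called beside 27.9% of all tested genes. The metallothionein genes Mt2 and Mt1 rose by 2.64 and 0.59 on the log2 scale (edgeR adjusted p = 2.93e-05 and 0.00103). Nr3c1, the receptor itself, was at 138 ± 9.67 CPM in KO against 131 ± 4.70 CPM in control (0.08, adjusted p = 0.337). Dusp1, a phosphatase gene, was at -0.47 (0.0422), which did not pass without KO 2, KO 4, control 1, control 2 or control 4 (0.0791 to 0.103) and with library size alone (0.107).

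Neuron markers were listed because of Snhg11 and Snhg14. Of 13 tested, 1 rose, 1 fell and 11 were not called, 15.4% called beside 27.9% of all tested genes. The median log2 fold change of the markers was -0.58. Their summed level was 20.5 to 31.2 CPM in KO against 12.5 to 38.5 CPM in control. The gene that rose was Elavl3, a neuronal RNA-binding protein, at 5.99, 5.36, 6.02 and 5.17 CPM in KO 1 to 4, against 0.962, 0.0756, 1.05 and 0.993 CPM in controls 1 to 4 (log2 fold change 2.87, SE 0.47, edgeR adjusted p = 0.00171). Control 2 was the lowest library for Elavl3, as it was for Snhg11. The count of called genes was 5 without control 2 and with the replicate block (1 higher and 4 lower each), 4 by DESeq2 and with the Y-linked covariate, and 1, which was higher, without KO 1, KO 3, KO 4, control 1, control 3 or control 4. Elavl4, a relative of Elavl3, was at -1.11 (0.0312), which did not pass without KO 1, KO 3, KO 4, control 1, control 3 or control 4 (0.0552 to 0.0884). Th and Chat, transmitter-synthesis enzymes of autonomic neurons, did not pass the filter on low counts, and Chat was at 0 in every KO library.

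**Figure D5:**
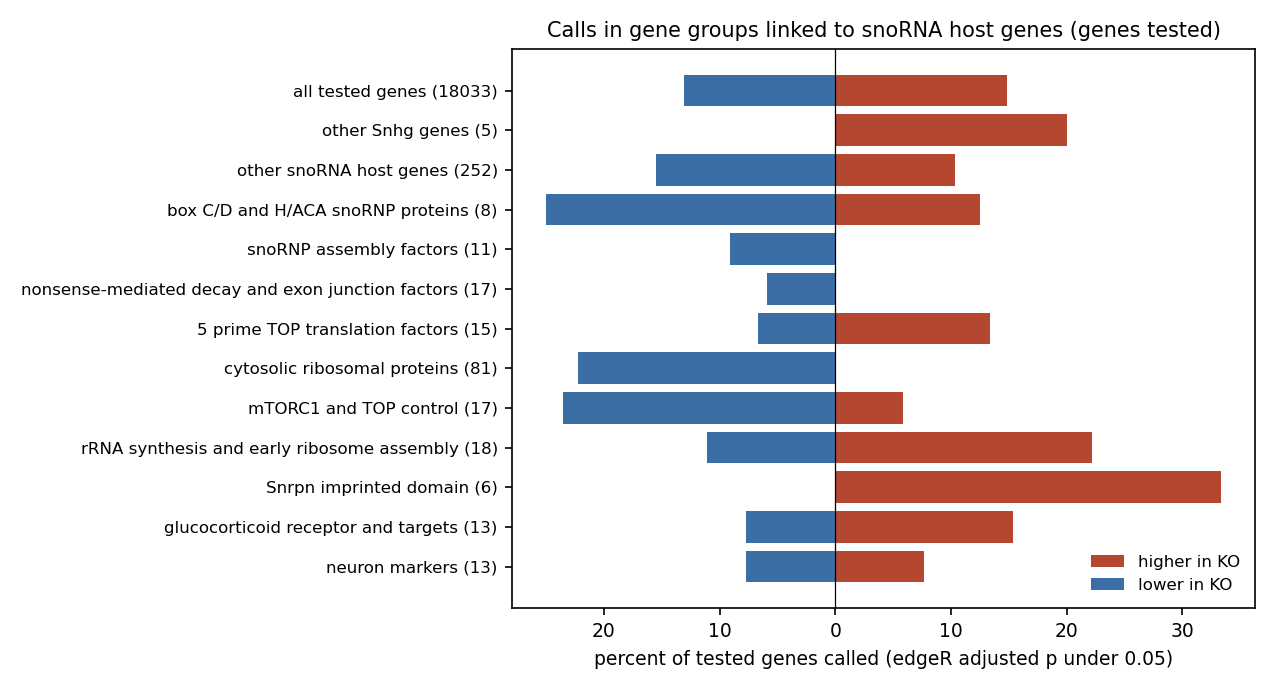
Share of the tested genes of each list called by edgeR (adjusted p under 0.05), higher in KO to the right and lower in KO to the left, in percent, with the number of tested genes in brackets and all 18033 tested genes on top. In this fit with TMM scaling, the 18 calls of ribosomal proteins are on the lower side alone. Assembly factors and decay factors have 1 call each, also lower.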

How the data were processed

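Poly(A) RNA of 8 atrial libraries was sequenced. The values the authors deposited are raw read counts, whole numbers for each gene and library. The submitters' processing notes name STAR, DESeq2 and mm10, a mouse build, and leave out the counting step, its use of strand and the annotation release. Of the table's 54532 identifiers, 54495 were in GENCODE M21 (GRCm38, the assembly of mm10), whose coordinates, exon lengths and snoRNA genes were used. The 10 host genes and the gene lists were chosen with earlier results of these data known. Named genes were all host genes, their nearest tested protein-coding neighbours, every other Snhg gene and up to 4 called genes with the smallest p per list. Gm25129, Snord87, Gm24966 and the genes given as not called were named after their values were seen.

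Counts were analysed with edgeR 4.0.16 in R 4.3.3. The function filterByExpr (minimum count 10, minimum total 15) left 18033 genes. After TMM scaling, the groups were compared by edgeR's quasi-likelihood test in its robust form, without covariates (6 residual degrees of freedom, common dispersion 0.0204). P-values were adjusted by Benjamini-Hochberg over all tested genes and called under 0.05. This called 5032 genes, 2677 higher and 2355 lower in KO, and with library size alone 3696 higher and 1580 lower, with the median of all genes shifted by 0.08 on the log2 scale. CPM are on the TMM scale, and RPKM divides CPM by exon length. A count of 3 per library (0.0744 to 0.0885 CPM) was the floor and covers counting error only. The test was tried on simulated data. Within groups, chi-square per degree of freedom between libraries was 12.2 to 31.0 over all 12 pairs, above sampling noise. Alternatives were RLE and upper-quartile scaling, library size alone, DESeq2 1.42.0, limma-voom (limma 3.58.1) with quality weights, 2 other filters, a block for replicate number, each library left out, controls 1 and 2 or 3 and 4 alone, and a Y-linked covariate.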

Additional observations from a re-analysis of the deposited data

Results flagged for a closer look

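Snhg12 was at 4.49 CPM in control 3, far below the other controls (8.01, 7.97 and 8.53 CPM) and below all KO libraries (6.15 to 7.52 CPM). It was the single such value in 20 groups of 4 libraries examined, and chance gives about 1 in 20. Control 3 was the lowest control for 8 of the 10 host genes, and the cause was not tested.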

How the results depend on the processing

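The numbers of genes called higher, lower and in either direction stayed within 1.5 times of those reported under all 19 alternatives, except that 1700 genes were higher against controls 3 and 4 alone, a comparison with fewer samples. When 1 library was left out, 2032 to 2687 genes were higher and 1877 to 2614 lower. The log2 fold changes of the 9 tested host genes moved by less than the spread between replicates in 169 of 171 comparisons. Both exceptions were against controls 1 and 2 alone, with Snhg11 at 6.48 and Gas5 at 0.09, and the cause was not tested. Signs held in all 20 fits for 8 of the 9, and Snhg12 was positive in 1 fit. The members were chosen on this contrast, so their calls over these fits are only a description. Snhg11 and Snhg14 were called in every fit. Gas5 was not called under RLE or upper-quartile scaling, DESeq2, without any 1 library other than control 2, or against controls 1 and 2 alone, and Snhg5 was called with library size alone. For the 14 gene lists, 68 of 266 counts of calls moved by more than 1.5 times, 48 of them to fewer calls.

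Deviations of same-numbered KO and control libraries had correlations of -0.06 to 0.30 over 4 pairs, the highest for number 2. So few pairs cannot show whether same-numbered libraries share more than a number. With the replicate number as a block, 4757 genes were called, 2474 higher and 2283 lower, and Gas5 was not called. Depth limits Snhg3, with 2 to 13 counts per library, and the hosted snoRNAs.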

Other observations

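Close to Snhg15, whose own groups overlapped, Nacad, a gene related to the nascent polypeptide-associated complex, was at 27.0 ± 4.95 CPM in KO against 1.83 ± 0.404 CPM in control (SD, n = 4 each; log2 fold change 3.88, SE 0.17, edgeR adjusted p = 9.08e-08). Within 250 kb of the Snhg15 start, 3 of 10 other tested genes were higher (Nacad, Ccm2 and the cyclophilin gene Ppia), 2 lower (Zmiz2 and Ogdh) and 5 not called, beside 27.9% of all tested genes called. Mybl1, a MYB-family transcription factor gene near Snhg6, was at 3.94 ± 0.585 CPM in KO against 2.01 ± 0.131 CPM in control (log2 fold change 0.97, adjusted p = 0.00087). These genes were chosen after their values were seen.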
